A study of Mus musculus with 3 samples.

Results

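Antibody genes and the genes of B cells and plasma cells were examined in CD8+ T cells sorted from mice whose T cells lack the type II TGF-β receptor. The 9 genes were Jchain, Ighm, Igk, Cd79a, Cd79b, Ms4a1, Xbp1, Mzb1 and Pou2af1, and their members were all probe sets that GEO's platform annotation assigns to exactly 1 gene symbol that is one of these. That gave 26 probe sets among 34945 with 1 symbol, and 9 genes among 18193. The genes were chosen by earlier values of these same arrays, in which Jchain was far higher in the NK1.1+ fraction, so the levels given here are a description and none of them was tested.

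Antibodies are built from heavy and light chains, and the J chain links antibody units into the secreted polymers of IgM and IgA. A B cell carries its antibody on the surface together with the CD79A and CD79B signalling chains and also displays CD20, the product of Ms4a1. When it becomes a plasma cell it loses much of this surface machinery and, under the transcription factor XBP1, enlarges the secretory pathway that folds and exports antibody. Mature CD8+ T cells make neither antibody nor CD79 chains, and in sorted T cells such transcripts are commonly used to look for other cells.

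RNA was hybridised to 3 Affymetrix mouse genome arrays, 1 per group, so no group has a replicate and this number limits the precision of all that follows. The knockout groups (KO in the plots) were CD8+ T cells sorted as NK1.1+ or NK1.1− from Tgfbr2fl/fl x CD4-Cre mice, 15 to 17 days old, in which Cre driven by the Cd4 promoter acts in T lineage cells. The control was CD8+ T cells of Tgfbr2fl/wt x CD4-Cre littermates, which carry the same Cre and 1 floxed allele. Its title says NK1.1−, while part of the design text says total CD8+ cells. No source used here says whether animals were pooled. Tgfbr2 itself read 1808 in NK1.1+ knockout, 1271 in NK1.1− knockout and 2634 in control cells by its brightest probe set, which checks the labels only if it lies in the deleted part, and that is not known here.

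The arrays differed beyond the members. The deposited values are linear GCRMA intensities with medians of 8.18 to 8.99. The 3′ to 5′ ratio of Actb, a measure of RNA integrity, was 81.9 in NK1.1+ knockout, 12.3 in NK1.1− knockout and 6.02 in control cells, while that of Gapdh was 10.8, 26.7 and 17.8. Over all genes, 9.72% were called at least 2-fold higher and 22.5% lower in NK1.1+ knockout than in control cells, against 41.8% and 3.38% with the arrays scaled to housekeeping genes. Of the 9 NK cell markers measured, 7 were called higher, against 9 on that scale. T cell genes were present on all arrays, with Cd3e between 701 and 776, but 11 of 14 T cell markers were at least 2-fold lower on the NK1.1+ knockout array than in control, against 2 on the housekeeping scale. Markers of monocytes and macrophages were higher there for 12 of 16 and lower for 0, against 13 and 0 on the housekeeping scale, and their summed intensity was 27205 in NK1.1+ knockout, 1885 in NK1.1− knockout and 1554 in control cells. Itgam, Cd14, C1qa, Marco and Csf3r from that list were measured on no array. A probe set that the NK1.1 gene Klrb1c shares with Klrb1b read 1618, 52.7 and 7.09 in the same order. Cd8a read 524, 1027 and 1786 by its brightest probe set. Over all Cd8a probe sets, the log2 difference of NK1.1+ knockout from control ranged from -3.59 to 0.03. The part of these differences in the results below was not tested. In such bulk RNA, fewer cells of a type and less RNA per cell cannot be told apart.

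A value counted as measured at an intensity of 9.57 or more, the 95th percentile of 142 probe sets of genes silent in lymphocytes, such as olfactory receptors. Lower values were raised to that level before differences were taken on the log2 scale. A difference of 2-fold or more, 1 on the log2 scale, was called higher or lower. Of the 26 member probe sets, 13 were measured on every array, 2 on the NK1.1+ knockout array only, and 11 on none. The unmeasured ones were 7 of the 11 Ighm probe sets, 3 of the 4 for Igk and the only one for Cd79a. Intensities of different probe sets are on different scales, so levels are compared between arrays and never between genes.

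Promoter sequences of 300 bases, 250 before to 50 after the gene start, are held for 4 of the 9 genes in a RefSeq table of build GRCm38.p6. Those of Jchain and Xbp1, higher in NK1.1+ knockout cells, and of Pou2af1, lower there as deposited, are shown because these genes take opposite positions in the results. Capitals mark matches to ACGTG, the core letters of sites that XBP1 is known to bind, or to CAGGTG, an E box that E proteins are known to bind, on either strand. Each sequence is given 5′ to 3′ as the table lists it.
Jchain, chr5:88527848-88528147, minus strand: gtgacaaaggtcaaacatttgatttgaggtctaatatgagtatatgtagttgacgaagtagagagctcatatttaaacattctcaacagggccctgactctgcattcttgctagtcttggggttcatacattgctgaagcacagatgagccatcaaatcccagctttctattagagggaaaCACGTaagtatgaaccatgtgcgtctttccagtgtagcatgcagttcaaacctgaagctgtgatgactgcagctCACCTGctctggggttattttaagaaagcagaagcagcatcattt
Xbp1, chr11:5520391-5520690, plus strand: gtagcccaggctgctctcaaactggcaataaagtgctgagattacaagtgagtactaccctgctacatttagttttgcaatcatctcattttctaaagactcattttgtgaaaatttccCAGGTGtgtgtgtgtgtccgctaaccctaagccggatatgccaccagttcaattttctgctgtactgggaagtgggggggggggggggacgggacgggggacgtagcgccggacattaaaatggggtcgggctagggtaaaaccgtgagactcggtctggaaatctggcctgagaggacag
Pou2af1, chr9:51213440-51213739, plus strand: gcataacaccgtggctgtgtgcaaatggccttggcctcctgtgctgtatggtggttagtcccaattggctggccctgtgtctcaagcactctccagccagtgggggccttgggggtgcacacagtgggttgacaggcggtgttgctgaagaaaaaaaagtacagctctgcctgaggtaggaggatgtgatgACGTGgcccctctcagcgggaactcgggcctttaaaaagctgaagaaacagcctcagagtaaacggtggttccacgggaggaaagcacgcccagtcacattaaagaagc

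The letters ACGTG lie at bases 182 to 186 of the Jchain window, on the reverse strand, and at bases 192 to 196 of the Pou2af1 window. They are in 19.6% of the 32851 promoter windows of the table. CAGGTG, in 20.2% of windows, lies in those of Jchain, at bases 256 to 261 on the reverse strand, and Xbp1, at bases 120 to 125, and also in that of Cd79a. The octamer ATGCAAAT, which the Pou2af1 product OCA-B is known to recognise together with OCT factors, is in 1.74% of all windows and in 0 of the 4 member windows. The motifs do not overlap one another in these windows. Each match describes letters only and was not tied to any value on the arrays.

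Of the members, Jchain, Igk, Mzb1, 1 Ighm probe set and 2 Xbp1 probe sets were at least 2-fold higher in NK1.1+ knockout than in control cells. Jchain, the J chain gene, read 2282 in NK1.1+ knockout, 16.0 in NK1.1− knockout and 15.9 in control cells, a 143-fold difference between NK1.1+ knockout and control. The value stood high on the NK1.1+ knockout array alone. Among 18574 probe sets compared between the knockout fractions, the Jchain probe set had the largest difference upward, at 7.16 on the log2 scale; it ranked 2 with the measured level raised to 54.0, with 32 added to every value, with quantile normalization and with the housekeeping scale. Against control it ranked 5 of 18654. Both low readings lay close to the measured level, and with the level of 54.0, below which 75% of all values lie, the log2 difference from control was at least 5.40.

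Igk, the symbol of the κ light chain locus, followed the same course. Its probe set 1452557_a_at read 1609 in NK1.1+ knockout, 21.6 in NK1.1− knockout and 17.4 in control cells. That was 92.4-fold above control and 74.4-fold above NK1.1− knockout, again with 1 high array. The other 3 Igk probe sets read between 4.45 and 5.87 on all arrays and were not measured.

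Ighm, the μ heavy chain of IgM, was read by 2 bright probe sets that disagreed. Probe set 1427351_s_at read 10744 in NK1.1+ knockout, 771 in NK1.1− knockout and 1904 in control cells, 5.64-fold above and 2.47-fold below control in the respective fractions. Probe set 1427329_a_at read 1364, 293 and 1244 in the same order, 0.13 above control on the log2 scale in NK1.1+ knockout cells and 4.25-fold below it in NK1.1− knockout cells. Both placed the NK1.1− knockout array lowest, and both separated the knockout fractions, by 13.9-fold and 4.66-fold. They differed in where control lay, above the NK1.1− knockout reading and well under that of NK1.1+ knockout in the first, and beside the NK1.1+ knockout reading in the second. Another, 1427870_x_at, lay between 23.6 and 24.1 on all arrays. The last measured one, 1452535_at, read 11.3 in NK1.1+ knockout, 5.41 in NK1.1− knockout and 7.10 in control cells, so it was measured on the first array only, at least 1.18-fold above the others.

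**Figure D1:**
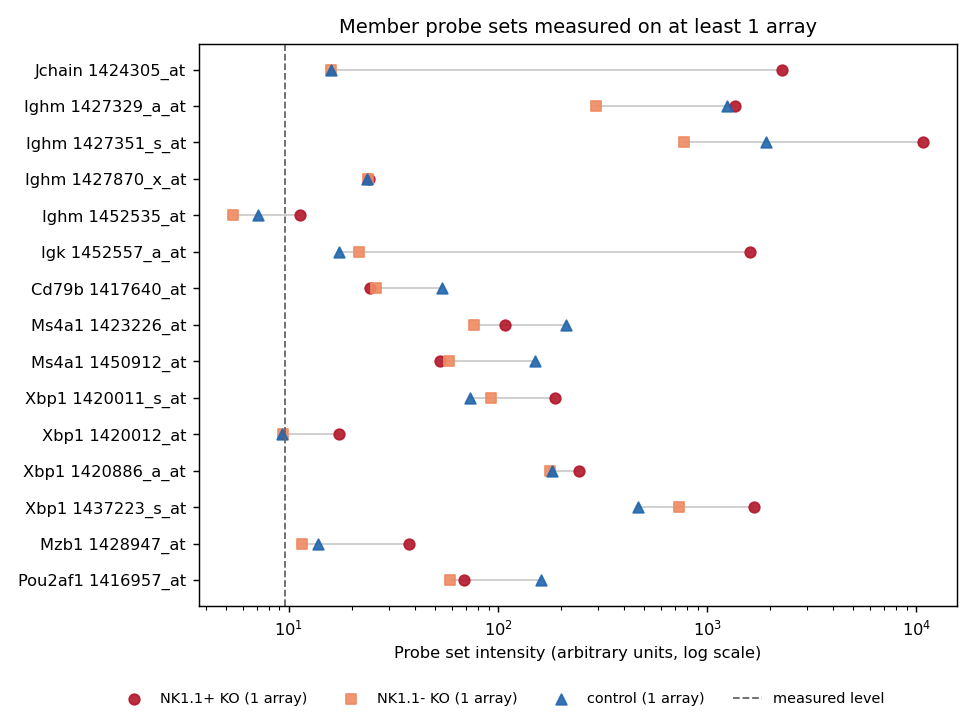
Intensity (log axis, arbitrary units) of the 15 member probe sets measured on at least 1 array; each point is 1 array (circle NK1.1+ KO, square NK1.1− KO, triangle control) and the dashed line is the measured level of 9.57. Jchain and Igk show 1 far point, NK1.1+ KO, at 2282 and 1609, whereas for Cd79b, Ms4a1 and Pou2af1 the control point lies highest; with housekeeping genes as the scale, Cd79b, Pou2af1 and 1 Ms4a1 probe set lie above control in NK1.1+ KO cells.

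Xbp1, which drives the secretory program of plasma cells and is also active in other secreting and stressed cells, was higher in NK1.1+ knockout cells by a smaller margin. Its brightest probe set, 1437223_s_at, read 1675 in NK1.1+ knockout, 731 in NK1.1− knockout and 468 in control cells. This was 3.58-fold above control and 2.29-fold above NK1.1− knockout. Probe set 1420011_s_at read 188, 92.9 and 73.5 in the same order, 2.55-fold above control. The other 2 kept the order of NK1.1+ knockout highest but stayed under 2-fold. Of these, 1420886_a_at read 243, 176 and 182, and 1420012_at read 17.3 in NK1.1+ knockout and below the level on the other arrays. The 4 probe sets thus gave log2 differences from control of 0.42 to 1.84. The array does not tell the spliced from the unspliced Xbp1 transcript.

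Mzb1, whose product assists antibody assembly in the endoplasmic reticulum of B cells and plasma cells, read 37.6 in NK1.1+ knockout, 11.5 in NK1.1− knockout and 13.8 in control cells. It was 2.73-fold above control and 3.27-fold above NK1.1− knockout. Its values are low, and with 32 added to every intensity the log2 difference from control was 0.61.

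Ms4a1, Cd79b and Pou2af1 lay below control in NK1.1+ knockout cells on the deposited scale, but Cd79b, Pou2af1 and 1 Ms4a1 probe set lay above it with the housekeeping scale. Ms4a1, the gene of CD20, was read by 2 probe sets. Probe set 1423226_at read 108 in NK1.1+ knockout, 76.7 in NK1.1− knockout and 212 in control cells, which put the knockout arrays 1.95-fold and 2.76-fold under it. Probe set 1450912_at read 52.9, 58.4 and 150.2, which is 2.84-fold and 2.57-fold below control. Both put the control array highest and agree that the knockout fractions lay within 1.41-fold of each other.

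Cd79b, one of the signalling chains of the B cell receptor, read 24.5 in NK1.1+ knockout, 26.0 in NK1.1− knockout and 53.7 in control cells. It was 2.19-fold and 2.06-fold below control, and the knockout fractions differed by 1.06-fold. Its partner Cd79a read 5.92, 5.37 and 5.39, below the measured level on every array. Pou2af1, encoding the B cell coactivator OCA-B, read 69.0 in NK1.1+ knockout, 58.8 in NK1.1− knockout and 161 in control cells, which put the knockout arrays 2.33-fold and 2.73-fold under it. For these 3 genes the knockout fractions lay side by side below control on the deposited scale, at log2 differences between the fractions of -0.14 to 0.50, against 1.14 to 1.78 with the housekeeping scale described further on.

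In NK1.1+ knockout against control, 6 of the 15 member probe sets compared were called higher, beside 8.72% of all probe sets, and 3 were called lower, beside 22.5%. The median log2 difference of the members was 0.42, and that of all probe sets was -0.16. In NK1.1− knockout against control, 0 of 13 were called higher, beside 6.9%, and 6 were called lower, beside 5.89%, with a median of -0.26 against 0.005 for all probe sets. Between the knockout fractions, 7 of 15 were higher in NK1.1+ cells, beside 6.3%, and 0 were lower, beside 20.5%. The members were picked with these contrasts known, so nothing is read from the counts. The comparisons share arrays, and the differences of 1 array enter 2 of them.

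The scale of the NK1.1+ knockout array bears on every gene placed below control there, and a difference smaller than the shift can turn. Scaled to 8 housekeeping genes, which read 1.37 lower on the log2 scale there than on the control array, the median difference of all genes from control moved from -0.17 to 0.78, and 41.8% of genes were called higher and 3.38% lower. On that scale Cd79b and Pou2af1 turned to log2 differences of 0.24 and 0.15 from control in NK1.1+ knockout cells, both below the all-gene median, and Ms4a1 gave 0.41 and -0.13. Member calls were then 10 higher and 0 lower. With quantile normalization they were 6 higher and 1 lower, with Pou2af1 at -0.93 and Cd79b at -0.94, and of all genes 12.3% were called higher and 18.2% lower. Against control, the direction of Jchain, Igk, Mzb1, Xbp1 1437223_s_at and Ighm 1427351_s_at in NK1.1+ knockout cells was upward on each of these scales. Ms4a1, Pou2af1, Cd79b and both bright Ighm probe sets lay below control in NK1.1− knockout cells on each of these scales. With the housekeeping scale Cd79b was at -0.95 there, under 2-fold.

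**Figure D2:**
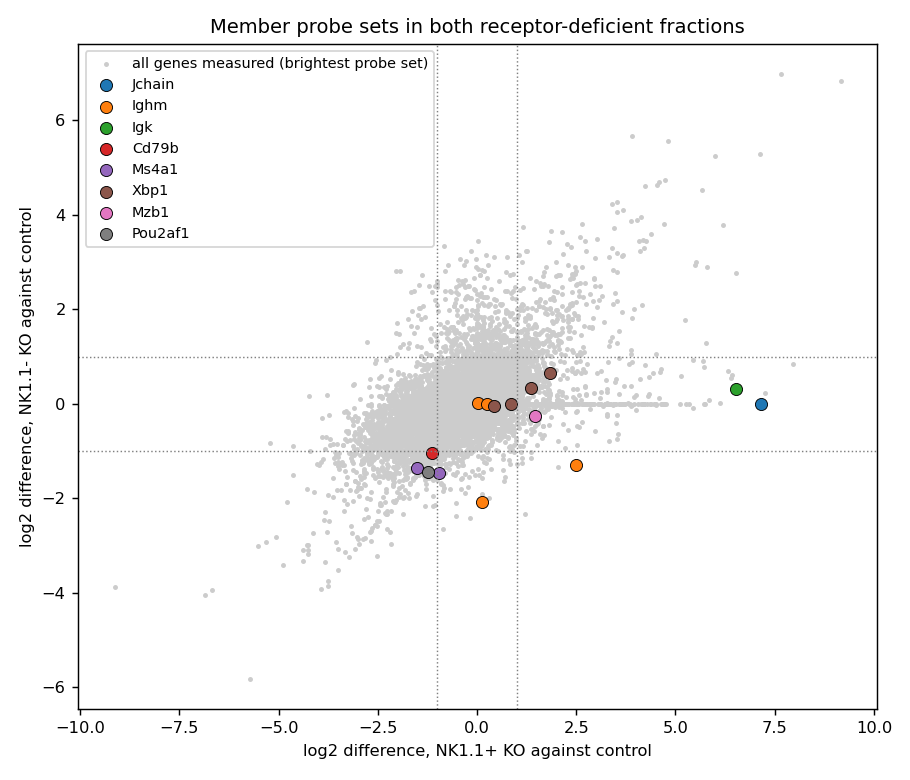
Log2 difference from control of NK1.1+ KO (horizontal) and NK1.1− KO (vertical) cells for the measured member probe sets (coloured) and for all measured genes by their brightest probe set (grey); dotted lines mark 2-fold, and both axes share the control array. Jchain at 7.16 and Igk at 6.53 lie far right near 0 vertically, while Ms4a1, Cd79b and Pou2af1 lie more than 2-fold below control on the vertical axis; their horizontal place below 0 is as deposited, and Cd79b, Pou2af1 and 1 Ms4a1 probe set move above 0 with the housekeeping scale.

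Other immunoglobulin probe sets were read to see how far the Ighm and Igk pattern extends. Of 28 further probe sets with 1 immunoglobulin symbol, 21 were measured on no array. Of the 7 others, 3 were called higher in NK1.1+ knockout than in control cells, beside 8.72% of all probe sets, and 1 lower, beside 22.5%. The κ variable segment Igkv8-30 read 473 in NK1.1+ knockout, 60.2 in NK1.1− knockout and 82.8 in control cells, 5.71-fold above control. Its probe set carries the suffix that marks probes shared with related sequences. Igkv19-93 read 71.4, 11.2 and 12.4 in the same order, 5.77-fold above control. Both are high on 1 array, as Igk is.

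Ighg3, the constant region of IgG3, took an intermediate value in NK1.1− knockout cells on the deposited scale. It read 56.4 in NK1.1+ knockout, 19.6 in NK1.1− knockout and 7.51, below the level, in control cells, at least 5.89-fold and at least 2.04-fold above control. The call in NK1.1− knockout cells rests on the bound, since the log2 difference of 1.03 became 0.01 with the housekeeping scale and was just under 2-fold with quantile normalization. A second Ighg3 probe set read 10.4 to 11.7 on all arrays. The heavy chain segment Ighv14-2 went the other way, at 12.5, 33.7 and 72.2, 5.77-fold below control in NK1.1+ knockout cells. The 3 probe sets of Igha, the IgA heavy chain, were measured on no array, with 4.56 to 8.44. The λ light chain gene Iglv1 read 11.7 to 14.2 by its measured probe set.

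Of 13 probe sets assigned to several immunoglobulin symbols, which name no gene here, 5 were measured. Among them 3 were higher in NK1.1+ knockout than in control cells, beside 8.72% of all probe sets with 1 symbol. These 3 carry the same set of κ chain symbols. Probe set 1427660_x_at read 9606, 708 and 893 in NK1.1+ knockout, NK1.1− knockout and control cells, 1452417_x_at read 6300, 493 and 611, and 1427455_x_at read 2199, 174 and 272. They were 8.09-fold to 10.8-fold above control, with the NK1.1− knockout array lowest in each. Unlike Igk 1452557_a_at, they were well above the measured level on all arrays. The probes of such sets can read shared sequence, so the 3 are not separate evidence.

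**Figure D3:**
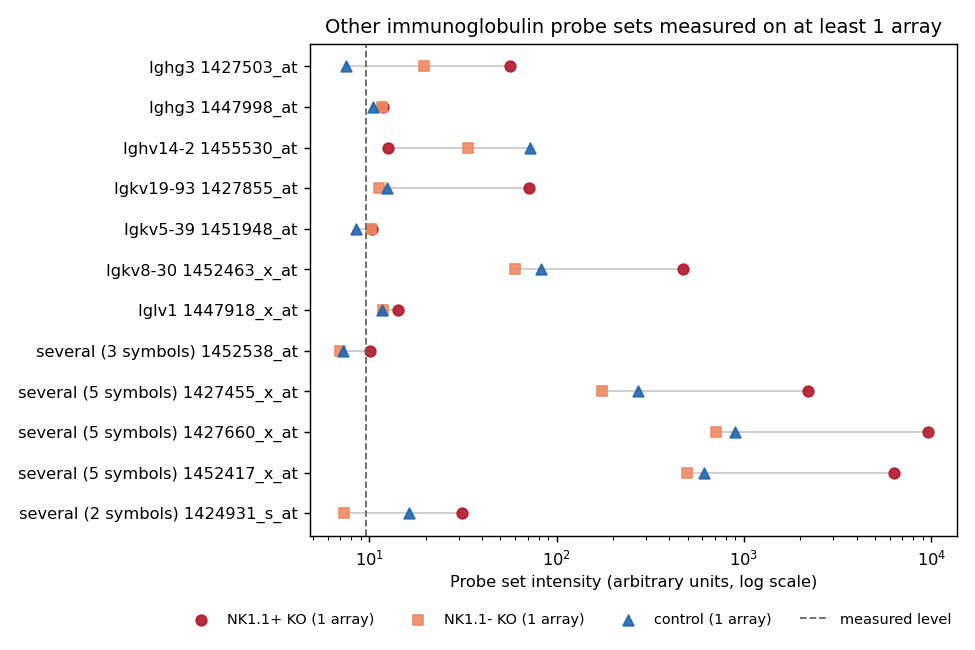
Intensity (log axis, arbitrary units) of the 12 immunoglobulin probe sets outside the members that were measured on at least 1 array; each point is 1 array and the dashed line is the measured level of 9.57. The NK1.1+ KO point lies highest for the κ chain probe sets, up to 9606, and lowest for Ighv14-2, at 12.5.

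The wider B lineage was read from lists of genes by their brightest probe set, drawn up with earlier results of these arrays known. Against control, 9.72% of 10659 genes were called higher and 22.5% lower in NK1.1+ knockout cells, with a median log2 difference of -0.17. For NK1.1− knockout against control these shares were 7.97% and 5.54%, with a median of 0.011. Between the knockout fractions they were 6.43% higher and 20.9% lower in NK1.1+ cells, with a median of -0.24. With the housekeeping scale the shares were 41.8% and 3.38% against control in NK1.1+ knockout cells, and 36.9% and 2.31% between the fractions.

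Of 31 B cell identity and receptor signalling genes measured, 6 were called higher and 10 lower in NK1.1+ knockout than in control cells, with a median of -0.32. With the housekeeping scale these counts were 15 and 0. Pax5, which fixes B cell identity, read 5.12 to 5.30 and was measured on no array, as were the B cell signalling genes Blnk and Btk. The largest difference upward was that of Ly86, encoding MD-1, which B cells and myeloid cells both use, at 496 in NK1.1+ knockout, 46.9 in NK1.1− knockout and 26.6 in control cells (18.7-fold above control). Pik3ap1, an adaptor of PI3 kinase signalling in B cells and NK cells, read 193, 118 and 10.7, and so was high in both knockout fractions. Fcgr2b, the inhibitory Fc receptor of B cells and myeloid cells, read 95.6, 20.9 and 16.8. None of these 3 is restricted to B cells. H2-Ob, an antigen loading gene of B cells, read 51.9, 91.7 and 268 and was 5.17-fold below control.

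The same list in NK1.1− knockout cells had 4 of 29 genes called higher and 8 lower (median -0.45). Each of those 8, which include Cd72, Fcmr, Spib, Cd24a and Bach2, was also called lower in NK1.1+ knockout cells on the deposited scale. Both comparisons use the same control array, and 22.5% of all genes were called lower in NK1.1+ knockout cells. The share of all genes lower in both was not computed, so nothing is read from this overlap. As given above, these lower calls in NK1.1+ knockout cells were gone with the housekeeping scale. Cxcr5, the chemokine receptor that guides B cells and follicular helper T cells, lay on opposite sides of control on the deposited scale. It read 27.9 in NK1.1+ knockout, 164 in NK1.1− knockout and 63.8 in control cells. Its log2 difference of -1.19 in NK1.1+ knockout cells is smaller than the housekeeping shift of 1.37, so that side depends on the scale. Cd22, an inhibitory coreceptor of the B cell receptor, read 182, 359 and 82.7 and was above control in both fractions. Between the knockout fractions, 6 of 28 were higher and 3 lower in NK1.1+ cells (median 0.24), against 18 and 1 with the housekeeping scale.

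Among 6 early B cell genes 0 were called higher and 3 lower in NK1.1+ knockout against control (median -0.81), and 1 was called lower in NK1.1− knockout cells. The 3 were Sox4, at 107, 102 and 612, Il7r, at 3630, 5042 and 7648, and Myb, at 545, 884 and 1159, all of which are also active in T cells. Il7r and Myb turned to log2 differences of 0.30 and 0.29 in NK1.1+ knockout cells with the housekeeping scale. The surrogate light chain gene Vpreb1 was not measured on any array, and its partner Igll1 read 9.60, 15.7 and 14.0. Of 5 germinal centre genes, 2 were called higher and 1 lower (median 0.21). Bcl6, the master regulator of germinal centre B cells and follicular helper T cells, read 691, 241 and 196, 3.53-fold above control. S1pr2 was 2.36-fold above control (0.18 on the log2 scale by its other probe set) and Basp1 3.37-fold below control. As deposited, both had like values in the knockout fractions, although the other S1pr2 probe set gave -0.65 on the log2 scale between them. With the housekeeping scale, S1pr2 and Basp1 were 1.39 and 1.41 higher in NK1.1+ than in NK1.1− knockout cells. Basp1 was then -0.38 in NK1.1+ knockout against control. Fas read 26.0, 48.5 and 32.1.

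Plasma cell genes were divided on the deposited scale. Against control, 4 of 18 were called higher and 5 lower in NK1.1+ knockout cells (median 0.005), against 9 and 2 with the housekeeping scale. Between the knockout fractions 0 of 18 were higher and 4 lower in NK1.1+ cells (median -0.010). With the housekeeping scale 8 were higher and 1 lower, beside 36.9% and 2.31% of all genes. Those called higher than control as deposited included Prdm1, encoding BLIMP1, which directs plasma cell and effector T cell fate. It read 269 in NK1.1+ knockout, 273 in NK1.1− knockout and 46.9 in control cells. Slamf7, a receptor of plasma cells and cytotoxic lymphocytes, read 251, 216 and 25.0, and Ell2, an elongation factor that favours secreted antibody transcripts, 453, 231 and 55.5. All 3 stood above control in both knockout fractions, where Jchain stood above it in 1.

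Sdc1, which encodes the plasma cell surface marker CD138, read 10.1, 7.73 and 10.5, close to the level. Tnfrsf17, the gene of the survival receptor BCMA, and Derl3 were measured on no array. Irf4 encodes a factor needed for plasma cells and also induced in activated T cells. It read 40.1 in NK1.1+ knockout, 205 in NK1.1− knockout and 97.6 in control cells, on the deposited scale lowest where Jchain was highest. Its log2 difference of -1.28 from control there is smaller than the housekeeping shift of 1.37, so its place below control depends on the scale. Tnfrsf13b, encoding TACI, read 33.9, 82.7 and 243, and Edem2 13.3, 41.0 and 84.1, both lowest in NK1.1+ knockout cells as deposited. With the housekeeping scale their log2 differences between the knockout fractions were -0.006 and -0.34. Against control in NK1.1+ knockout cells they were then -1.47 and -1.29.

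Unfolded protein response and secretory pathway genes, among them targets of XBP1, numbered 30, of which 3 were called higher and 4 lower in NK1.1+ knockout against control (median -0.18). Between the knockout fractions 3 were higher and 7 lower in NK1.1+ cells, beside 6.43% and 20.9% of all genes. Dnajb9, an XBP1 target, read 1008, 521 and 561, 1.80-fold above control, and the chaperone gene Hspa5 3422, 4905 and 4104. Hspa5 probe sets ranged from -1.62 to 0.75 on the log2 scale in NK1.1+ knockout against control, so its direction depends on the probe set. The protein disulphide isomerase genes Pdia3, at 83.3, 664 and 710, and Pdia6, at 129, 562 and 822, were 8.52-fold and 6.37-fold below control in NK1.1+ knockout cells. A second Pdia3 probe set differed by -0.09 on the log2 scale. Hsp90b1 was 3.44-fold below control, and its other probe set gave -0.43. Atf4 was 3.59-fold above control by its brightest probe set and -1.90 on the log2 scale by another, so its direction depends on the probe set. With the housekeeping scale 18 of these genes were called higher and 2 lower against control.

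**Figure D4:**
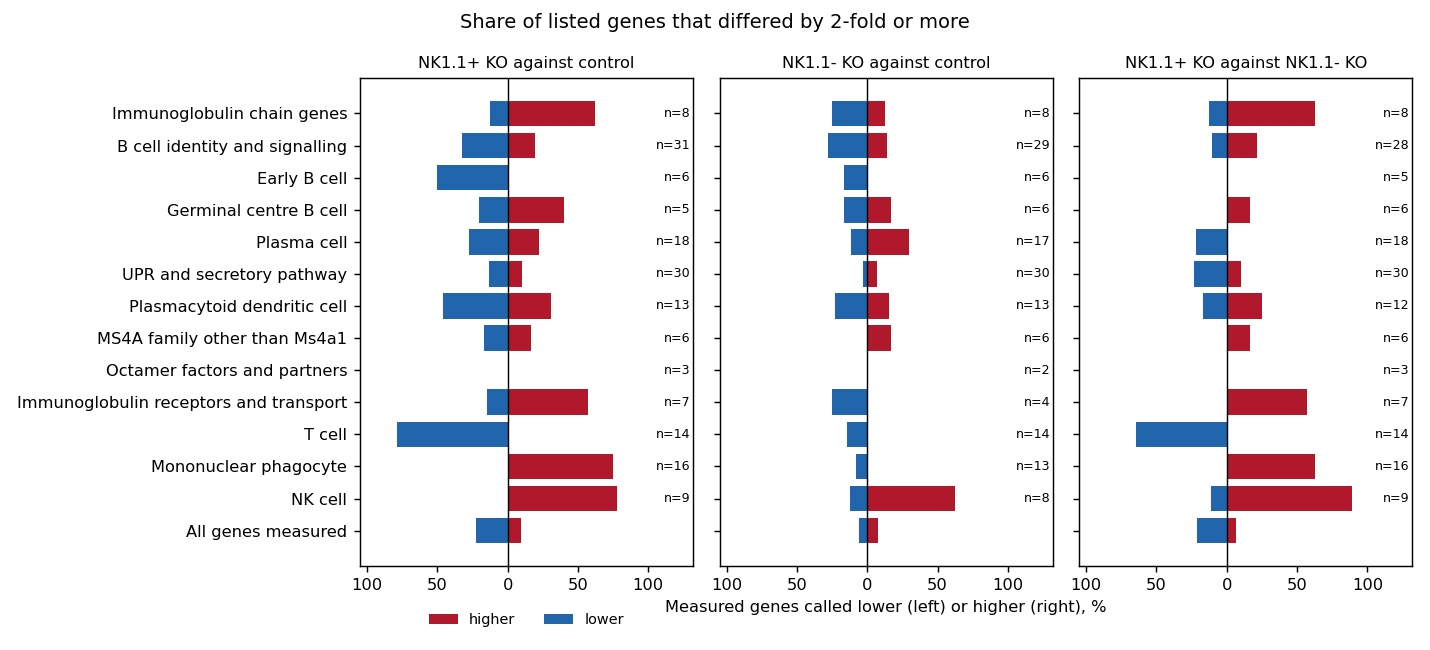
Share of measured genes (percent, brightest probe set) called at least 2-fold lower (blue, left) or higher (red, right) in each list, with the number compared at the right; 1 panel per comparison, UPR is the unfolded protein response, and the lowest row is all genes. In the right panel 0 of 18 plasma cell genes were higher in NK1.1+ than in NK1.1− KO cells, beside 6.43% of all genes. There, 5 of 8 immunoglobulin chain genes and 10 of 16 phagocyte genes were higher. With the housekeeping scale 8 of 18 plasma cell genes were higher, beside 36.9% of all genes.

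Markers of plasmacytoid dendritic cells, which also express Jchain, numbered 13. On the deposited scale 4 were called higher and 6 lower in NK1.1+ knockout against control, with a median of -0.62. Over all genes the shares were 9.72% and 22.5%. That median is smaller in size than the housekeeping shift of 1.37, so its side depends on the scale. Siglech, the defining surface marker of plasmacytoid dendritic cells, read 5.72 to 5.91 and was measured on no array. Tcf4, the factor that maintains these cells and also acts in B cells, read 65.1 in NK1.1+ knockout, 10.3 in NK1.1− knockout and 10.3 in control cells, 6.34-fold above control, although other Tcf4 probe sets ranged down to -0.09 on the log2 scale. Lair1, an inhibitory receptor of many leukocytes, read 237, 93.5 and 20.6. Over its probe sets the log2 difference of NK1.1+ knockout from control ranged from 0.75 to 3.52. Between the knockout fractions it ranged from -0.68 to 1.34, so that direction depends on the probe set. Ccr9, at 14.9, 36.9 and 293, and Atp1b1, at 394, 449 and 3181, were 19.6-fold and 8.07-fold below control. Another Ccr9 probe set gave 0.67 on the log2 scale. Plac8, also active in many leukocytes, read 2625, 666 and 632. The summed intensity of the list was 3673, 1688 and 4525 with Atp1b1, and 3279, 1239 and 1344 without it. Plac8 alone gave 2625 of the 3279 in NK1.1+ knockout cells. The sums thus follow single bright probe sets, and nothing is read from them about the list.

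Of 7 measured genes for receptors and carriers of antibody, 4 were called higher in NK1.1+ knockout than in control cells and 1 lower (median 1.76), and the same 4 were called higher than in NK1.1− knockout cells. Fcgr4, an activating Fcγ receptor of monocytes, macrophages and neutrophils, read 386 in NK1.1+ knockout cells and 5.63 and 5.59, below the level, in the others, at least 40.3-fold higher. Fcer1g, the signalling chain of Fc receptors, read 261, 5.76 and 6.17, at least 27.2-fold higher. Fcgr3 read 151, 57.2 and 44.4, and Fcgr2b is given above. Fcmr, the IgM receptor of lymphocytes, read 16.5, 16.4 and 41.3, and was lower than control in NK1.1− knockout cells by 2.52-fold. Fcgrt, whose product recycles IgG, read 62.3, 62.3 and 40.0, and Fcgr1 13.3, 6.26 and 6.64. Pigr, which carries polymeric antibody with J chain across epithelia, was measured on no array.

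Relatives and partners of the members were mixed. Among 6 measured genes of the MS4A family other than Ms4a1, Ms4a6d read 802 in NK1.1+ knockout, 369 in NK1.1− knockout and 72.1 in control cells, 11.1-fold above control and opposite to Ms4a1. Ms4a6c was at -0.24 on the log2 scale in NK1.1+ knockout against control by its brightest probe set. Its other probe set gave 3.51 there and 4.19 between the knockout fractions. Ms4a4b, known in T cells, read 26530, 24098 and 21862. Ms4a4c was 1.52-fold below control. Ms4a6b was 2.20-fold below control as deposited and at 0.24 on the log2 scale with the housekeeping scale. Its other probe set gave 0.16 as deposited. Of the octamer factors and partners of OCA-B, 0 of 3 measured genes were called in NK1.1+ knockout against control, where 9.72% and 22.5% of all genes were. Pou2f2, encoding OCT2, read 12.1 in NK1.1+ knockout cells and below the level on the other arrays, Siah1a read 551, 506 and 1011, and Siah2 39.7, 47.2 and 47.3.

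The genes most like Jchain were sought by Euclidean distance over the log2 differences of both knockout arrays from control, among 10129 genes measured on the NK1.1+ knockout array. With 3 arrays this likeness rests on 2 differences. The nearest was Adgre4, a macrophage receptor gene, which read 1685, 12.9 and 11.1 (distance 0.23). Igk was second (0.70), followed by Fpr2, Klf4, Vcam1, Tgfbi, Csf1r and Tnfaip2 (0.94 to 1.32). Csf1r, the receptor of the macrophage growth factor, read 7666, 54.5 and 30.5. All members but Igk lay farther away, with Ighm at rank 218 by its brightest probe set, Xbp1 at 380 and Mzb1 at 571. Ms4a1, Cd79b and Pou2af1 ranked 8163, 8371 and 8644, and Cd79a was not measured on that array.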

How the data were processed

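The deposited table holds intensity values, 1 column for each of the 3 arrays, with 45101 probe sets of which 64 are controls. Per the submitters' processing notes the authors used GCRMA 1.1.3, which corrects background by probe sequence, normalizes arrays and summarises probe sets; no source here gives its settings. The linear scale was read from the values, 2.60 to 55468. Strong background correction compresses low values, so differences near the level of 9.57 depend on it.

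Groups came from sample titles. Log2 was taken after raising values below the level, and each gene was represented by the brightest of its single-symbol probe sets (mean log2). With 1 array per group no test was run and no p-value is given. Platform annotation paired 34945 probe sets with 1 symbol and 932 with more, and left 9160 unnamed. Entrez identifiers of 34741 matched a RefSeq table of GRCm38.p6, used for names only. The 13 lists held 240 distinct genes, 215 with a single-symbol probe set; 8 stand in 2 lists. Members and lists were chosen with earlier results of these data known. Named genes were all member probe sets, up to 4 per list with the largest difference between NK1.1+ knockout and control, up to 2 fixed defining genes, and the 8 genes nearest to Jchain. A few others were named after their values were seen, as examples of counts or as unmeasured markers. The calls were tested on simulated data in which only bright genes were changed and arrays otherwise differed by small random amounts. That simulation held no shift of a whole array and no difference in RNA integrity, so it does not bear on those differences between the real arrays. Python 3.11.15, pandas 2.3.3, numpy 2.4.6 and matplotlib 3.10.9 were used.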

Additional observations from a re-analysis of the deposited data

Results flagged for a closer look

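One Ighm probe set, 1427351_s_at, stood on opposite sides of control in the knockout fractions, with a log2 difference of 2.50 in NK1.1+ knockout and -1.30 in NK1.1− knockout cells. With 1 array per group the difference between fractions was not tested. The other bright Ighm probe set gave 0.13 and -2.09. No group is large enough to look for a sample far from the others.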

How the results depend on the processing

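Of 72 recomputed counts of member or listed gene calls, 61 stayed within 1.5 times. With 32 added to each value, or with quantile normalization, 1 member probe set was called lower in NK1.1+ knockout against control, in place of 3. Without probe sets whose suffix marks probes shared between transcripts or genes, which hold the Igk, Ighm and Xbp1 calls, 2 members were called higher against control and 2 against NK1.1− knockout. With the housekeeping scale, members called in NK1.1+ knockout against control were 10 higher and 0 lower, and 14 were higher than in NK1.1− knockout. Distinct listed genes were 87 higher and 11 lower against control (47 and 41 as deposited), and 86 higher and 3 lower against NK1.1− knockout (40 and 27). Cd79b and Pou2af1 reversed to 0.24 and 0.15 against control, and between the fractions Cd79b and Ms4a1 1450912_at reversed to 1.20 and 1.14. On that scale 36.9% of genes were higher and 2.31% lower in NK1.1+ than NK1.1− knockout cells; with quantile normalization 8.81% and 15.9%. The cause was not tested. Of recomputed single member differences 196 stayed on their side of 2-fold, 10 became called, 10 lost the call and 4 that were called on either scale reversed. Of the 196, 6 changed sign without being called, among them Ms4a1 1423226_at, from -0.96 to 0.41. Of counts per list, 365 stayed within 1.5 times and 103 did not. The probe set mean was run for genes only, and the suffix rule for members only. No paired analysis was possible because each group has 1 array. Leaving out a replicate was not possible either.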
